A study of Homo sapiens with 6 samples.

Results

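The FOXO genes FOXO1, FOXO3 and FOXO4 were followed in embryonal rhabdomyosarcoma cells given extra miR-27a. Every probe that the array files name after one of these genes, older names FOXO1A and FOXO3A included, was taken, which gave 3 of the 30484 gene names on the array and 7 of its 41000 gene probes, 2 for FOXO1, 2 for FOXO3 and 3 for FOXO4. All 7 were among the 36469 probes that passed the filter on spots not found. The array held no probe named after the remaining family member, FOXO6.

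RH36 is an established cell line of embryonal rhabdomyosarcoma, a childhood soft tissue tumour with features of the skeletal muscle lineage, and its label states that it lacks the PAX3/FOXO1 translocation that joins FOXO1 to a muscle lineage factor in the other main subtype. Expression was measured with 1-colour Agilent arrays in RH36 transfected with pre-miR-27a, a precursor of the microRNA (3 arrays), or with the negative pre-control pre-miR (3 arrays), and the labels call the arrays of a group biological replicates. The labels give 10 nM of precursor and place the pre-miR-27a samples 48 h after transfection, while their protocol tests miR overexpression at 24 h, and the study's methods state another dose. RNA came from 1 cell line in transient transfection, so p-values measure the spread between these cultures.

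FOXO proteins bind DNA through a forkhead domain and switch on genes of cell cycle arrest, apoptosis, stress defence and metabolism. Insulin and growth factors act through PI3K and AKT, which phosphorylates FOXO proteins and sends them from the nucleus to the cytoplasm, so the mRNA level of a FOXO gene is not a measure of its activity. In muscle, FOXO1 and FOXO3 are known for inducing the ubiquitin ligases of atrophy, and FOXO1 is a published target of miR-27a in other cells. The question put to the arrays was which FOXO transcripts differed after the addition of miR-27a, and in which direction.

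The mature products of the miR-27a gene and the 3p product of its paralog miR-27b are shown. Bases 2 to 8, the seed, determine which mRNAs a microRNA pairs with. Whether the transfected precursor gave rise to the 5p product was not tested. The sequences are from RefSeq, GRCh38.p14, 5′ to 3′, with the seed in capitals. The main product lies at chr19:13836447-13836467 on the minus strand.
hsa-miR-27a-3p: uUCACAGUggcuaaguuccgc
hsa-miR-27a-5p: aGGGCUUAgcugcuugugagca
hsa-miR-27b-3p: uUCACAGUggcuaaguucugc
The 3p products of miR-27a and miR-27b have the same seed, whereas the 5p product of miR-27a has another.

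All pre-control arrays lay on 1 slide with 1 scan and all pre-miR-27a arrays on another, so the slide cannot be told apart from the transfection. Between 69.9% and 73.9% of spots were well above background on pre-control arrays and between 74.1% and 78.0% on pre-miR-27a arrays. The median background was 74.5 to 76 on pre-control and 52.5 to 53 on pre-miR-27a arrays. Spots not found numbered 1559 to 1750 on pre-control and 3487 to 4153 on pre-miR-27a arrays. The 8 spike-in transcripts well above background on all 6 arrays were each higher on the slide of the pre-miR-27a arrays, with log2 differences of 0.05 to 0.42 and a median of 0.28. Of 14 muscle markers, all were well above background on every array, with summed normalized signals of 556975 to 742846 on pre-control and 544655 to 705625 on pre-miR-27a arrays. By the brightest probes, none of the 14 passed the limma test, and 3 had an unadjusted p under 0.05, against 22.9% of all genes. When 1 passing probe was enough, 1 of the 14 passed, a share that was not computed over all genes. This was CHRNA1, through a probe with a log2 fold change of 0.95 (adjusted p = 0.0216, limma). The brightest CHRNA1 probe had −0.15 (adjusted p = 0.456, limma). MYOG (−0.95), MYOD1 (−0.45) and CDH15 (−0.35) were lower on every pre-miR-27a array than on any pre-control array. The share of all genes without overlap in this direction was not computed. With the replicate number as a block, 4 of the 14 passed, 1 higher and 3 lower, against 13.5% of all genes. The lower ones were MYOG, MYOD1 and CDH15, with adjusted p of 0.0334, 0.0363 and 0.0457 (limma). Of 10 markers of blood, epithelium and endothelium, 4 (PTPRC, EPCAM, CDH1 and PECAM1) were not well above background on any array. On every array 3 (CD3E, CD68 and VWF) were well above background. The sums over the 10 were 453 to 631 on pre-control and 380.0 to 428 on pre-miR-27a arrays. Of the 10, only CD3E passed the limma test (−0.44, adjusted p = 0.0348), where 6.65% of all genes passed. The part of the slide, the spike-in shift and the markers in the results below was not tested.

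FOXO1, the family member best known for insulin-regulated transcription, was higher after pre-miR-27a by its brighter probe. This probe was made for NM_002015 and lies at chr13:40031128-40031661 on the minus strand (hg18), an interval of 534 bases where those of the other placed FOXO probes are 60. Its quantile-normalized log2 signals were 14.29, 14.20 and 14.38 on the pre-control arrays and 15.10, 15.11 and 15.19 on the pre-miR-27a arrays. All pre-miR-27a arrays were higher than all pre-control arrays, and the gap was several times the SD of 0.09 and 0.05 (n = 3 each). The log2 fold change was 0.85 (SE 0.08, 95% interval 0.64 to 1.05), a 1.80-fold higher signal (1.56 to 2.07), with an adjusted p of 0.0176 by limma. The direction is visible before normalization, in processed intensities of 20682 to 22772 against 31270 to 34733, none of them saturated. The call depended on the arrays used, since leaving out any 1 array other than pre-control replicate 1 gave log2 fold changes of 0.80 to 0.89 with adjusted p of 0.0502 to 0.0767, and the q of SAM was 2.44% in its unpaired and 4.33% in its paired form, both above the limit of 1.9% that was applied. In RNA of whole cultures, more transcript per cell cannot be told apart from more cells that carry it.

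The second FOXO1 probe showed a smaller difference. It lies at chr13:40028709-40028768, further towards the 3′ end of the minus-strand gene, and carried log2 signals of 11.90, 11.82 and 12.02 on pre-control against 12.19, 12.11 and 12.25 on pre-miR-27a arrays. The groups did not overlap here either, but the log2 fold change was 0.27 (SE 0.09, interval 0.05 to 0.49), which missed the threshold (adjusted p = 0.138, limma) and lay inside the range of the spike-in transcripts. Within an array, the log2 difference between the FOXO1 probes was larger after pre-miR-27a by 0.58, with SDs of 0.02 in pre-control and 0.05 in pre-miR-27a arrays (two-sided exact permutation p = 0.1, the smallest that 3 arrays against 3 can give). The probes therefore did not report the same size of change, and the mean of the FOXO1 probes gave 0.56 (adjusted p = 0.0365, limma). RefSeq also lists a pseudogene, FOXO1B, and whether it shares sequence with either probe was not tested.

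**Figure D1:**
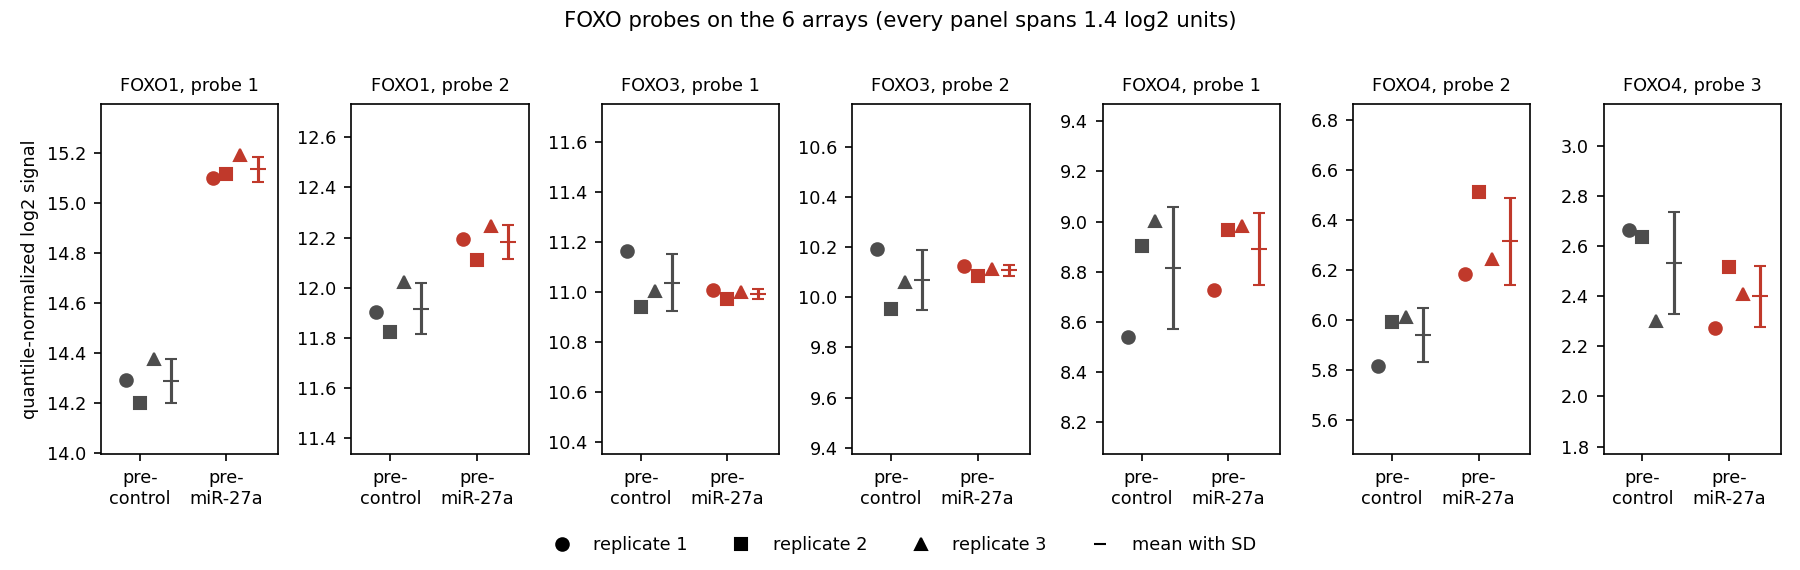
Quantile-normalized log2 signal (vertical axis) of each FOXO probe on the 3 pre-control (grey) and 3 pre-miR-27a (red) arrays, with symbols for the replicate number and a bar for the mean with its SD. FOXO1 probe 1 lies at 14.20 to 14.38 in pre-control and 15.10 to 15.19 in pre-miR-27a arrays, whereas the FOXO3 probes and the brightest FOXO4 probe overlap between groups.

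FOXO3, a close relative known for autophagy and stress defence, did not pass the test by either probe. The brighter probe (NM_001455, chr6:109107727-109107786, plus strand, hg18) gave log2 signals of 11.16, 10.94 and 11.01 in pre-control and 11.01, 10.97 and 11.00 in pre-miR-27a arrays. The pre-miR-27a values lay within the pre-control range, with a log2 fold change of −0.04 (SE 0.09, interval −0.26 to 0.17, adjusted p = 0.808, limma). The second probe (chr6:109092647-109092706) gave 10.19, 9.95 and 10.06 against 10.13, 10.08 and 10.11, a log2 fold change of 0.04 (SE 0.09, interval −0.18 to 0.26, adjusted p = 0.834, limma). Both intervals end below the lower bound of FOXO1 probe 1, but both overlap the interval of FOXO1 probe 2 (0.05 to 0.49). FOXO3B, a near-identical copy of FOXO3, had no probe of its own, and how much it adds to these signals was not tested.

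FOXO4, the X-linked member, had 3 probes of very different brightness. The brightest (NM_005938, chrX:70239078-70239137, plus strand, hg18) gave 8.54, 8.90 and 9.00 in pre-control and 8.72, 8.97 and 8.98 in pre-miR-27a arrays, with a log2 fold change of 0.08 (SE 0.15, interval −0.30 to 0.45, adjusted p = 0.806, limma). Replicate 1 was the lowest array in both groups, and the groups overlapped. The second probe (chrX:70238432-70238491) was dim, with processed intensities of 58.8 to 74.4 in pre-control and 70.9 to 84.8 in pre-miR-27a arrays, yet its log2 signals of 5.82, 5.99 and 6.01 against 6.19, 6.51 and 6.24 did not overlap. Its log2 fold change of 0.37 (SE 0.12, interval 0.08 to 0.67) did not pass the test (adjusted p = 0.125, limma) and lay within the range of the spike-in transcripts. The third probe, made for the sequence U10072 and without a position in the files, stayed near background on each of the 6 arrays, and its change is left out.

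Across the family, 1 of 7 probes passed the test, in the direction of higher signal. Of all 36469 probes tested, 7.83% passed in either direction and 3.95% were higher in pre-miR-27a. The groups did not overlap, with pre-miR-27a higher, for 3 of the 7 probes, against 14.8% of all probes. With so few probes, these counts single out FOXO1 probe 1 and say nothing of the family as a group.

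**Figure D2:**
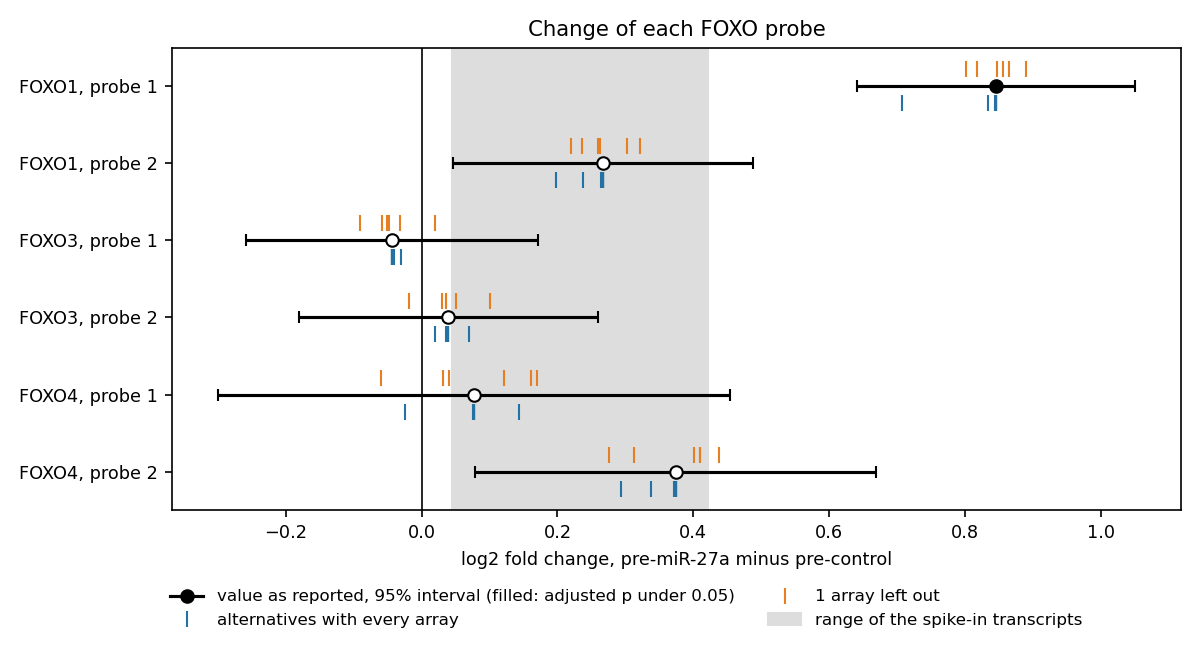
Log2 fold change (horizontal axis) of the 6 FOXO probes above background, with the 95% interval and a filled point where the adjusted p was under 0.05. Ticks below each point are other processing settings, ticks above it leave out 1 array, and the grey band spans the spike-in transcripts (0.05 to 0.42). FOXO1 probe 1 (0.85) is the only filled point.

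The members, each by its brightest probe, were also set against each other within arrays, which leaves out whatever moves all signals of an array alike. FOXO1 stands here for probe 1 alone. FOXO1 probe 2, with a log2 fold change of 0.27, was not set against the other members. The absolute difference between 2 probes has no meaning on an array, but its change does. Relative to FOXO3, FOXO1 rose by 0.89 on the log2 scale, with SDs of the within-array difference of 0.12 in pre-control and 0.05 in pre-miR-27a arrays. Relative to FOXO4, the change was 0.77, with SDs of 0.24 and 0.12. In both comparisons all pre-miR-27a arrays were above all pre-control arrays, and the two-sided exact permutation p was 0.1, the smallest possible, or 0.15 after Benjamini-Hochberg adjustment over the 3 pairs. The difference between FOXO3 and FOXO4 changed by −0.12, with overlapping groups (SDs 0.35 and 0.16, exact permutation p = 0.6).

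**Figure D3:**
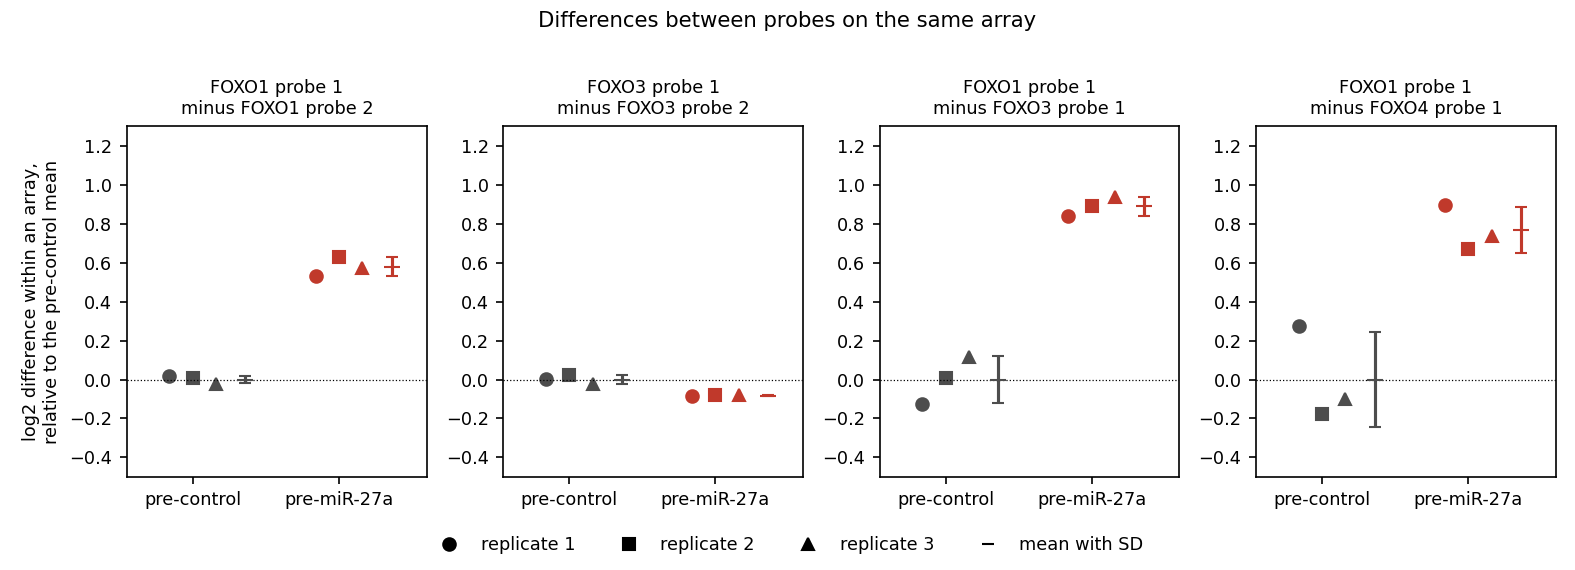
Log2 difference between a pair of probes on the same array (vertical axis, relative to the pre-control mean at 0) for the 3 pre-control (grey) and 3 pre-miR-27a (red) arrays, with the mean and SD. The FOXO1 probes moved apart by 0.58, while the FOXO3 probes moved by −0.08 relative to each other. By the brightest probes, FOXO1 moved away from FOXO3 by 0.89 and from FOXO4 by 0.77.

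Genes that act on FOXO proteins were taken as a list of 64, of which 63 had a kept probe and 1 (PRKAA1) did not. Each gene was taken by its brightest probe, and 3 were higher and 1 was lower in pre-miR-27a, where 2.61% of all 16612 genes were higher and 4.04% lower. The median log2 fold change of the list was 0.08, against −0.04 over all genes, and 43 of its genes had values above 0 and 20 below. Of all 16612 genes, 7212 had values above 0 and 9400 below. PIK3R3, a regulatory subunit of PI3K, rose from 9.97 ± 0.15 to 11.22 ± 0.07 (mean ± SD, n = 3), a log2 fold change of 1.25 (adjusted p = 0.0176, limma). A second PIK3R3 probe gave −0.04 (adjusted p = 0.906, limma), so the probes of this gene differed.

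EP300, an acetyltransferase that acts on FOXO proteins and their partners, rose by 0.70 (SE 0.11, adjusted p = 0.0276, limma), and its other probe by 1.28 (adjusted p = 0.0268). XPO1, the exportin that carries FOXO proteins out of the nucleus, rose by 0.45 (SE 0.09, adjusted p = 0.0433, limma), a call lost under 75th percentile scaling (0.38, adjusted p = 0.0598). PRMT1, which methylates FOXO1 at the arginines beside its AKT site, fell by 0.40 (SE 0.07, adjusted p = 0.0366, limma). The members that passed thus include both a nuclear coactivator and the nuclear exporter.

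The core of the pathway did not pass the test by the brightest probes. The log2 fold changes were 0.12 for AKT1 and 0.03 for AKT2 (−0.13 under 75th percentile scaling), kinases that phosphorylate FOXO proteins. The related kinases SGK1 and SGK3 had −0.11 and 0.05, the receptor IGF1R −0.08, the deacetylase SIRT1 −0.03 and SKP2, the ligase subunit that marks FOXO1 for degradation, −0.26, with adjusted p from 0.332 (SKP2) to 0.911 (SIRT1). PIK3R1, another PI3K regulatory subunit, had 1.19 with no overlap between the groups (10.31 ± 0.39 against 11.51 ± 0.47, adjusted p = 0.0724, limma) and passed once arrays were blocked by replicate number (adjusted p = 0.0334).

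The replicate block moved the list more than any other setting with every array. With it, 11 of the 63 genes passed, 8 higher and 3 lower, against 13.5% of all genes in either direction. When 1 passing probe was enough to count a gene, the list gave 5 higher and 2 lower, a share that was not computed over all genes. The added genes included CREBBP and CSNK1E, a coactivator and a casein kinase named here after their values were seen. CSNK1E counted as lower by a probe with −0.47, while its brightest probe had 0.32 (adjusted p = 0.109, limma). With 1 array left out, 0 to 1 of these genes passed.

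Genes published as FOXO targets formed a list of 72, of which 70 had a kept probe and 2 (PDK4 and TFEB) did not. By the brightest probe, 0 were higher and 4 were lower, while 41 of the 70 had values above 0 and 29 below, with a median of 0.05. Over all genes, 7212 had values above 0 and 9400 below, with a median of −0.04. As above, 2.61% of all genes were higher and 4.04% lower, and 6.65% passed in either direction, so the share of called targets lay near that of all genes. At an unadjusted p under 0.05, 10 of the 70 passed, against 22.9% of all genes. ADIPOQ, the adipocyte hormone adiponectin, fell by 0.95 (9.19 ± 0.30 to 8.24 ± 0.07, adjusted p = 0.0317, limma), and its other probe was not well above background. NOS3, the endothelial nitric oxide synthase, fell by 0.77 (SE 0.09, adjusted p = 0.0186, limma). PNPLA2, the triglyceride lipase of fat cells and muscle, fell by 0.58 (SE 0.09, adjusted p = 0.0248, limma), a call lost under 75th percentile scaling (−0.53, adjusted p = 0.0506). CAV1, a caveolar coat protein, was the other call, with −0.83 at a signal well above background on only 2 arrays of each group. With 1 array left out, 0 to 1 of the targets passed.

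**Figure D4:**
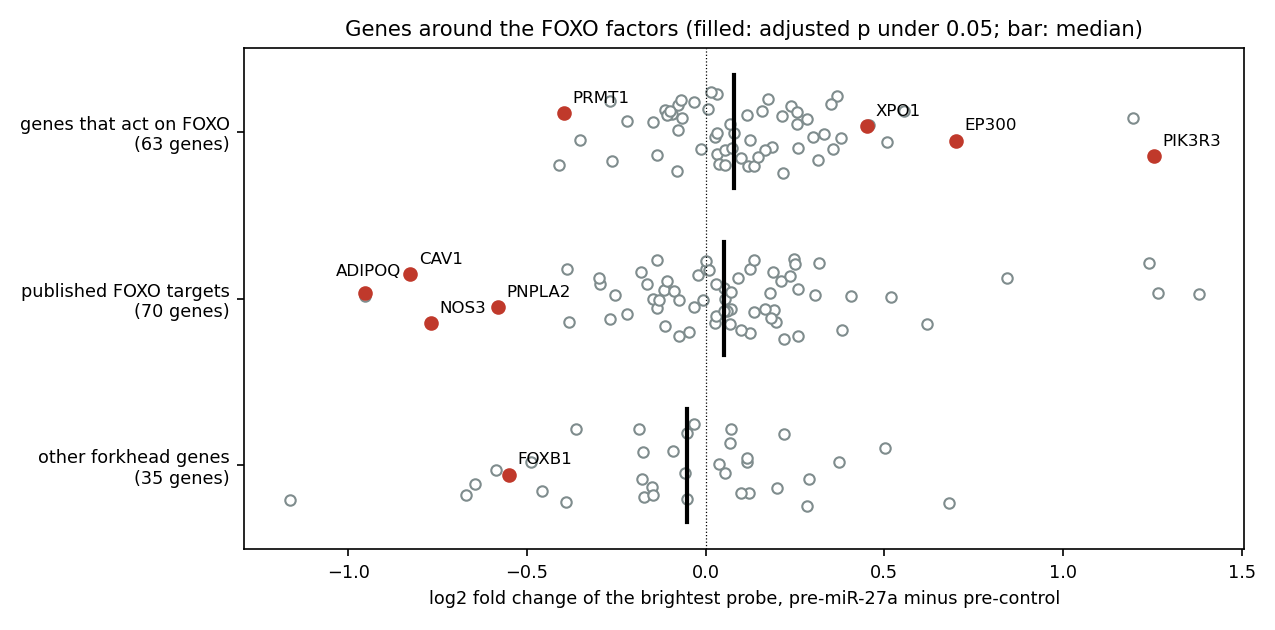
Log2 fold change of the brightest probe (horizontal axis) for 63 genes that act on FOXO proteins, 70 published FOXO targets and 35 other forkhead genes, filled and named where the adjusted p was under 0.05, with the median as a bar. The medians lie at 0.08, 0.05 and −0.05, and the 4 called targets all lie below 0.

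By their brightest probes, the best known FOXO targets did not pass. The cyclin-dependent kinase inhibitors CDKN1A and CDKN1B had log2 fold changes of 0.03 and 0.06, and the DNA damage gene GADD45A 0.03, the first and the last of them turning to −0.08 and −0.06 under 75th percentile scaling. The apoptosis gene BCL2L11 had 0.13 and the repressor BCL6 0.05. Among antioxidant and stress genes, SOD2 had −0.18, CAT −0.02, SESN1 0.01, SESN3 0.19 and TXNIP −0.22. The muscle atrophy ligases FBXO32 and TRIM63 had −0.16 and 0.18, and IRS2, of insulin signalling, 0.07, and the adjusted p of these genes ran from 0.376 (BCL2L11) to 0.979 (SESN1). When 1 passing probe was enough, BCL2L11 and PPARGC1A, a mitochondrial coactivator named after its values were seen, were added as higher. For BCL2L11 this came through a probe well above background on 3 of the 6 arrays. For PPARGC1A it came through a probe with a log2 fold change of 1.17 (adjusted p = 0.0181, limma). The brightest PPARGC1A probe had 0.05 (adjusted p = 0.843, limma), so the probes of this gene differed.

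Cyclin genes that FOXO proteins are known to repress or induce did not pass either, and their values lay on both sides of 0. By the brightest probes, CCND1 had 0.62 (adjusted p = 0.239, limma), CCND2 0.20 and CCNG2 0.38 (adjusted p = 0.0530), while CCNG1, added here after its value was seen, had −0.39 (adjusted p = 0.217). The other probes gave 0.69 and −0.21 for CCND1, 0.62 and −0.16 for CCND2 and 0.08 for CCNG2. MYOG, which drives the terminal differentiation of muscle and is shared with the muscle markers, had −0.95 (10.27 ± 0.50 against 9.32 ± 0.41, adjusted p = 0.140, limma), and its other probe −0.96 (adjusted p = 0.0920). CCND1, CCNG2 and MYOG passed with the replicate block, with adjusted p of 0.0374, 0.0382 and 0.0334. With the block, 10 of the 70 targets passed, 4 higher and 6 lower, against the same 13.5% of all genes.

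The DNA word GTAAACA, the core that forkhead proteins bind, was searched on both strands (reverse complement TGTTTAC) from 250 bases before to 50 after each gene's start in RefSeq. It occurred for 4.19% of 27305 genes and for 5 of the 56 targets with such a window (8.93%), namely BCL2L11, MXI1, SELENOP, TSC22D3 and TXNIP. Among the members, FOXO4 held it, 23 bases after its start at chrX:71095863-71095891 (GRCh38.p14, plus strand), shown with the word in capitals.
FOXO4: cccggcgagtgGTAAACAgagacgtcagg
The words are a description of these windows, and none of the 5 targets was among those that passed the test by the brightest probe.

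Of 35 other forkhead genes, 1 passed: FOXB1, a factor of the developing brain, fell by 0.55 (11.97 ± 0.15 to 11.43 ± 0.11, adjusted p = 0.0427, limma). Of all genes, 6.65% passed. The median over the 35 was −0.05. With the replicate block 8 of the 35 passed, 2 higher and 6 lower, against 13.5% of all genes. PAX3 and PAX7, the genes that fuse with FOXO1 in the other rhabdomyosarcoma subtype, had log2 fold changes of 0.43 (5.14 ± 0.08 against 5.57 ± 0.23, no overlap, adjusted p = 0.119) and −0.12 (adjusted p = 0.770), neither past the limma threshold. The PAX3 signal was dim, and under normexp its log2 fold change was 0.19 (adjusted p = 0.205, limma).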

How the data were processed

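Feature Extraction 10.5.1.1 was used by the authors, who deposited for every spot the processed intensity, with background subtracted within the array, and its quality flags. Their deposited series table, of log2 values, lay a median of 0.0040 (largest difference 1.16) from the quantile-normalized log2 signals computed here. Probe positions are on hg18, and precision rests on the number of arrays. The dose and time in the labels differ from those in the study's methods, and which apply was not settled.

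Following the study's methods, log2 processed intensities of the gene spots were quantile normalized, spots not found were set to missing, replicate spots were averaged, and probes with over 1 missing array were removed. Groups, taken from the labels, were compared over all 36469 probes with limma 3.58.1 (R 4.3.3, package data.table, version 1.17.8), with Benjamini-Hochberg adjustment, a threshold of 0.05 and 95% intervals. Calls over genes use adjusted p-values over all probes. Single differences used two-sided exact permutation tests. The fit was tested on simulated data. Current symbols came from RefSeq (GRCh38.p14) for 25260 probes and 16612 genes, each gene given by its brightest probe.

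Same-numbered arrays deviated together from their group means (correlations 0.40, 0.46 and 0.41 over 31717 probes, against −0.27 to −0.12 between numbers), so the replicate numbers, which the labels give, were taken to pair the arrays. The blocked value stands beside a result where it changed a call. Alternatives were 75th percentile scaling, normexp (offset 50), no filter, only probes clearly above background, the deposited table, the replicate block, a variance trend with robust estimation, unpaired SAM at 1.9% over 20 relabellings, any probe of a gene, and each array left out. The study names both a two-class and a paired SAM. Paired SAM (8 sign changes), the mean of a gene's probes and leaving out outlier spots were chosen after seeing the data.

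Named genes were the FOXO probes, fixed pathway genes, PAX3 and PAX7, and in each list up to 5 called genes a direction (3 for other forkhead genes) without overlap and well above background in the higher group. Some of the fixed genes are not reported here. Members and lists, written from general knowledge, were chosen with earlier results of these data known.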

Additional observations from a re-analysis of the deposited data

How the results depend on the processing

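FOXO1 probe 1 kept its direction under every alternative run and passed limma's test under the 8 that used every array, with log2 fold changes of 0.71 to 0.85 and adjusted p of 0.00431 to 0.0334. The mean of the FOXO1 probes gave 0.56 (adjusted p = 0.0365). At 1.9%, neither the unpaired nor the paired form of SAM called probe 1 (log2 fold change 0.85, q of 2.44% and 4.33%), which left 0 FOXO probes called. On the whole array the unpaired form called 9 probes at 1.9% and 1058 at 5%, and the paired form 3 and 1657. With 1 array left out its log2 fold change was 0.80 to 0.89, and it passed only without pre-control replicate 1 (adjusted p 0.0424 to 0.0767), so that 0 to 1 FOXO probes were called. Over the whole array, 1276 probes passed without pre-control replicate 1, 81 without pre-control replicate 3 and 0 without any other single array (7178 to 8636 at an unadjusted p under 0.05), with fewer arrays in each fit. Regulators and targets called fell to 0 to 1 each with 1 array left out. Regulators called rose to 11 with the replicate block and 7 when any probe counted, and targets to 10 with the block. By the brightest probes, the block also called PIK3R1, CCND1, CCNG2, MYOG, MYOD1 and CDH15. It changed no other call of a named gene from the lists and markers, or of PAX3 and PAX7.

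Values near 0 changed sign. These were AKT2 (−0.127), CDKN1A (−0.0806) and GADD45A (−0.0563) under 75th percentile scaling, which moved the median of all probes by −0.07, and FOXO4 probe 1 (−0.0244) under normexp. With 1 array left out, the ranges were −0.091 to 0.019 for FOXO3 probe 1, −0.019 to 0.10 for FOXO3 probe 2, −0.060 to 0.17 for FOXO4 probe 1 and −0.23 to 0.080 for FOXO3 minus FOXO4. They were −0.67 to 0.22 for TXNIP, −0.14 to 0.46 for TRIM63, −0.50 to 0.16 for FBXO32, −0.15 to 0.032 for SIRT1, −0.082 to 0.14 for CDKN1A, −0.037 to 0.15 for CDKN1B, −0.070 to 0.20 for BCL6, −0.081 to 0.16 for GADD45A, −0.12 to 0.12 for SESN1, −0.10 to 0.063 for CAT, −0.24 to 0.040 for SGK1, −0.16 to 0.021 for IGF1R and −0.27 to 0.029 for PAX7. The cause of these changes was not tested. No slide block could be fitted. FOXO4 probe 2, dim though well above background on each of the 6 arrays, gives a weak estimate. FOXO4 probe 3, near background, gives none.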

Other observations

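The genes whose brightest probe followed that of a FOXO gene most closely over the 6 arrays were listed as a description, among 12793 genes well above background on every array. For FOXO1 these were MAGEA1, DENND10, LARP7, OTUD4 and FXR2, with Pearson r of 0.999 to 0.995, and each of them was itself higher in pre-miR-27a, by 0.35 (LARP7) to 1.44 (OTUD4) on the log2 scale. For FOXO3 they were GTF2E1, PCDHB4, ABI1, KLHL29 and NISCH, with r of 0.986 to 0.966. For FOXO4 they were NAPG, MNAT1, DIPK2A, HESX1 and EPHA7, with r of 0.996 to 0.990. None of the genes listed for FOXO3 or FOXO4 passed the limma threshold, with adjusted p between 0.699 (KLHL29) and 0.907 (MNAT1). The arrays of a group share a slide, so that any gene that differs between the groups correlates with FOXO1.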
